A study of Mus musculus with 11 samples.

Results

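The Sp family comprised 9 of the 54752 genes counted in sorted thalamic neurons of newborn mice. Its members, Sp1 to Sp9, were chosen by name, with Sp9 as the starting point because its level differed between the sensory nuclei in these same libraries. The values of Sp9 are therefore given as a description, without a test. Of the 9 members, 7 passed the filter on low counts and were among the 15907 genes tested, and Sp7 and Sp8 did not pass.

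Neurons came from the dorsolateral geniculate nucleus (dLG, the visual relay of the thalamus), the ventral posteromedial nucleus (VPM, the relay for touch from the face) and the ventral part of the medial geniculate nucleus (MGv, the auditory relay). The nuclei had 4 (dLG), 4 (VPM) and 3 (MGv) libraries. All mice were of the outbred ICR/CD-1 strain, at postnatal day 0, and of genotype Gbx2CreER-IRES-EGFP/+::R26lsl-tdTomato/+, so the nuclei shared every allele and no library came from mice without them. In this line a Cre recombinase that tamoxifen activates is made by cells that express Gbx2, a thalamic transcription factor, and switches on the red protein tdTomato, by which the dissected cells were sorted. The cells sampled were thus those marked through Gbx2, each library held cells of 4 pooled brains, and variation between single animals was not measured.

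Sp proteins are transcription factors that share zinc fingers near the end of the protein and bind GC-rich elements of promoters known as GC boxes. Sp1 to Sp4 carry glutamine-rich activation domains and are found in many tissues, whereas Sp5 to Sp9 lack them and act mostly in embryonic tissues. Sp9, like its close relative Sp8, is known for the outgrowth of limbs and for the development of GABAergic neurons of the forebrain.

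The genes lie close to each other in pairs on the mouse genome (build GRCm38). Sp9 lies on the plus strand at chr2:73271925-73284706. Sp3 lies on the minus strand at chr2:72936427-72980446, with 291.5 kb between the bodies of these genes, and Sp5 lies 2458.7 kb from Sp3 on the same chromosome. Sp1 and Sp7 are 39.0 kb apart on chromosome 15, Sp2 and Sp6 are 30.4 kb apart on chromosome 11, and Sp4 and Sp8 are 544.9 kb apart on chromosome 12. All 9 are annotated as protein-coding.

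The 250 bases upstream of the start site are printed for Sp9 and for Sp3, since these members differed between the nuclei, and for Sp4 and Sp8, a neighbouring pair of which Sp4 passed no test between nuclei and Sp8 was close to 0. The sequences are those of RefSeq on build GRCm38.p6, 5′ to 3′ on the strand of the gene, and capitals mark the GC box, GGGCGG or its reverse complement. The windows are chr2:73271676-73271925 on the plus strand for Sp9, chr2:72980447-72980696 on the minus strand for Sp3, chr12:118301441-118301690 on the minus strand for Sp4 and chr12:118846079-118846328 on the plus strand for Sp8.
Sp9: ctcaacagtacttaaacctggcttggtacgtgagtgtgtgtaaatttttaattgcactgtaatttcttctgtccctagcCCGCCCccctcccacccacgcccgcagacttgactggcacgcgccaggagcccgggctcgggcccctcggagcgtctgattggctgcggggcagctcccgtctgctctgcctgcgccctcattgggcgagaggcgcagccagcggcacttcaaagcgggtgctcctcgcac
Sp3: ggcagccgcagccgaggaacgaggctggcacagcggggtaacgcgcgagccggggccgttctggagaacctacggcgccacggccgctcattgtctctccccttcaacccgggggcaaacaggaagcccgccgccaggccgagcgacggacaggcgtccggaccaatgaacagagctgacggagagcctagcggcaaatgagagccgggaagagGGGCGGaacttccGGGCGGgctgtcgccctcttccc
Sp4: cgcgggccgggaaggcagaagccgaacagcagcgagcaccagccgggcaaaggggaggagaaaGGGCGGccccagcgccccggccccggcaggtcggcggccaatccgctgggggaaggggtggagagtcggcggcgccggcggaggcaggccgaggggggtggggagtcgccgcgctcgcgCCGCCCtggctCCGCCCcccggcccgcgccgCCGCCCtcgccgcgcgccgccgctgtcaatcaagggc
Sp8: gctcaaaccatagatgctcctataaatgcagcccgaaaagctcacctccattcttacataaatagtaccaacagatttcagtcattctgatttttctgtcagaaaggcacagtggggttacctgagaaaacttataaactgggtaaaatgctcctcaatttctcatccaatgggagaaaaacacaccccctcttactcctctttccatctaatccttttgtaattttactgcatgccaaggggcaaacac

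The Sp9 window held 1 GC box, on the opposite strand, and the Sp3 window held 2 on the strand of the gene. The Sp4 window held 4, of which 3 lay on the opposite strand, and the Sp8 window held 0. At least 1 GC box was present in 32.7% of all 32817 such windows, and 4 or more in 4.09%. Upstream windows were found for 7 of the 9 members, Sp6 and Sp7 being the exceptions, and the Sp1 window held 4 GC boxes and the windows at the outermost starts of Sp2 and Sp5 held 0. At starts within the genes, further windows held 5 GC boxes for Sp3, 1 and 0 for Sp2, and 1 and 0 for Sp8. The CCAAT box, also counted on both strands, occurred 2 times in the Sp9 window and 1 time in each of the Sp3, Sp4 and Sp8 windows, against 33.8% of all windows with at least 1. These letters describe the windows and say nothing of binding in these cells.

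Total counts were between 10.2 and 23.6 M counts per library, from 15.9 to 22.7 in dLG, 18.9 to 23.6 in VPM and 10.2 to 13.2 in MGv, so that MGv was the shallowest nucleus. Levels are given as CPM, counts relative to the library total, with TMM scaling between libraries, and the floor of 3 counts, which covers counting error only, corresponded to 0.127 to 0.295 CPM. Markers of neurons were abundant, with a sum of 6 pan-neuronal genes between 8425 and 11123 CPM in every library. The 7 relay neuron genes summed to 2967 to 3483 CPM in dLG, 1951 to 2597 in VPM and 2690 to 2893 in MGv. They went different ways. Gbx2, through which the cells were marked, averaged 29.4 CPM in dLG, 35.3 CPM in VPM and 304 CPM in MGv. Tcf7l2 and Lhx2 also had their highest means in MGv, whereas Rora, Lhx9 and Lef1 had theirs in dLG, and Slc17a6 was lowest in MGv. The 9 GABAergic markers summed to 2.19 to 4.3 CPM in dLG, 4.33 to 21.3 CPM in VPM and 3.08 to 8.94 CPM in MGv, and the GABA transporter Slc32a1 was at 0 in all libraries but 1. In VPM this sum was mostly the neuropeptide genes Sst, with a mean of 8.43 CPM, and Npy, with 3.02 CPM. Sst passed only for dLG against VPM, and Npy, Gad1 and Gad2 passed in no comparison. A single library of each nucleus, replicate 2 of dLG, replicate 3 of VPM and replicate 1 of MGv, had 71, 66 and 74 counts of the chaperone gene Hspa8, against 2921 to 10659 counts in the other libraries. In dLG replicate 2, Crabp2, a gene high in MGv, had 103 CPM against 4.87 to 7.68 CPM in the other dLG libraries. Values without these libraries are given beside the member results that change. Some markers of other cells also differed between the nuclei. The 5 astrocyte markers summed to 47.6 to 96.8 CPM in MGv, 2.07 to 19.5 CPM in dLG and 6.88 to 15.3 CPM in VPM, and the 5 markers of the oligodendrocyte lineage to 65.3 to 74.2, 7.3 to 21.6 and 26.1 to 35.0 CPM. In MGv these sums were mostly Slc1a3, with a mean of 72.5 CPM, and Mbp, with 66.4 CPM. Aldh1l1, Gja1 and Olig1 passed in no comparison. Aqp4 passed only for VPM against MGv, at 0.122 against 1.01 CPM. Gfap, Pdgfra, Olig2 and Sox10, at most 0.389 CPM, were not tested. The 5 progenitor markers summed to 149 to 186 CPM in dLG and at most 114 CPM elsewhere. Most of this was Sox2, with means of 158 CPM in dLG, 73.6 CPM in VPM and 87.2 CPM in MGv. Nes went the other way, with 3.34 CPM in dLG and 9.17 CPM in MGv. Hes5 and Top2a passed in no comparison, and Mki67, at most 0.902 CPM, was not tested. The 3 blood markers reached 512 CPM in dLG replicate 3 and at most 11.7 CPM elsewhere. The part of these cells in the results was not tested.

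Sp9 was most abundant in dLG, intermediate in MGv and lowest in VPM. The dLG libraries had 81.9, 116, 117 and 293 CPM. The VPM libraries had 4.08, 3.25, 3.78 and 11.3 CPM, and the MGv libraries had 26.8, 13 and 30.3 CPM. Every dLG library lay above every MGv library, and every MGv library above every VPM library, with the narrowest gap between VPM replicate 4 and MGv replicate 2. The mean of dLG was 152 ± 95.5 CPM (SD, n = 4), that of VPM 5.59 ± 3.80 CPM (n = 4) and that of MGv 23.4 ± 9.17 CPM (n = 3). The fitted log2 fold change was 4.76 ± 0.50 (SE) for dLG against VPM, 2.7 ± 0.51 for dLG against MGv and −2.06 ± 0.49 for VPM against MGv. In bulk libraries such as these, more cells with Sp9 and more Sp9 RNA per cell cannot be told apart.

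Replicate 4 held the highest level of Sp9 in both dLG and VPM, and the highest library of a nucleus exceeded its lowest by 3.58-fold in dLG, 3.47-fold in VPM and 2.33-fold in MGv. Without dLG replicate 4 the mean of dLG was 105 CPM and the log2 fold change against VPM 4.22. Without VPM replicate 4 the mean of VPM was 3.70 CPM and this log2 fold change 5.35. The biological coefficient of variation of Sp9 was 42.6%, at percentile 77.5 of the genes tested, whereas that of Sp3 was 18.1%, at percentile 23.4. Sp9 thus differed strongly between libraries of the same nucleus as well as between the nuclei. The order of the nuclei was the same without the 3 libraries low in Hspa8, where the log2 fold changes were 4.73, 2.92 and −1.81 in the same order. Without dLG replicate 3, the library with blood markers, they were 4.86, 2.81 and −2.06.

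**Figure D1:**
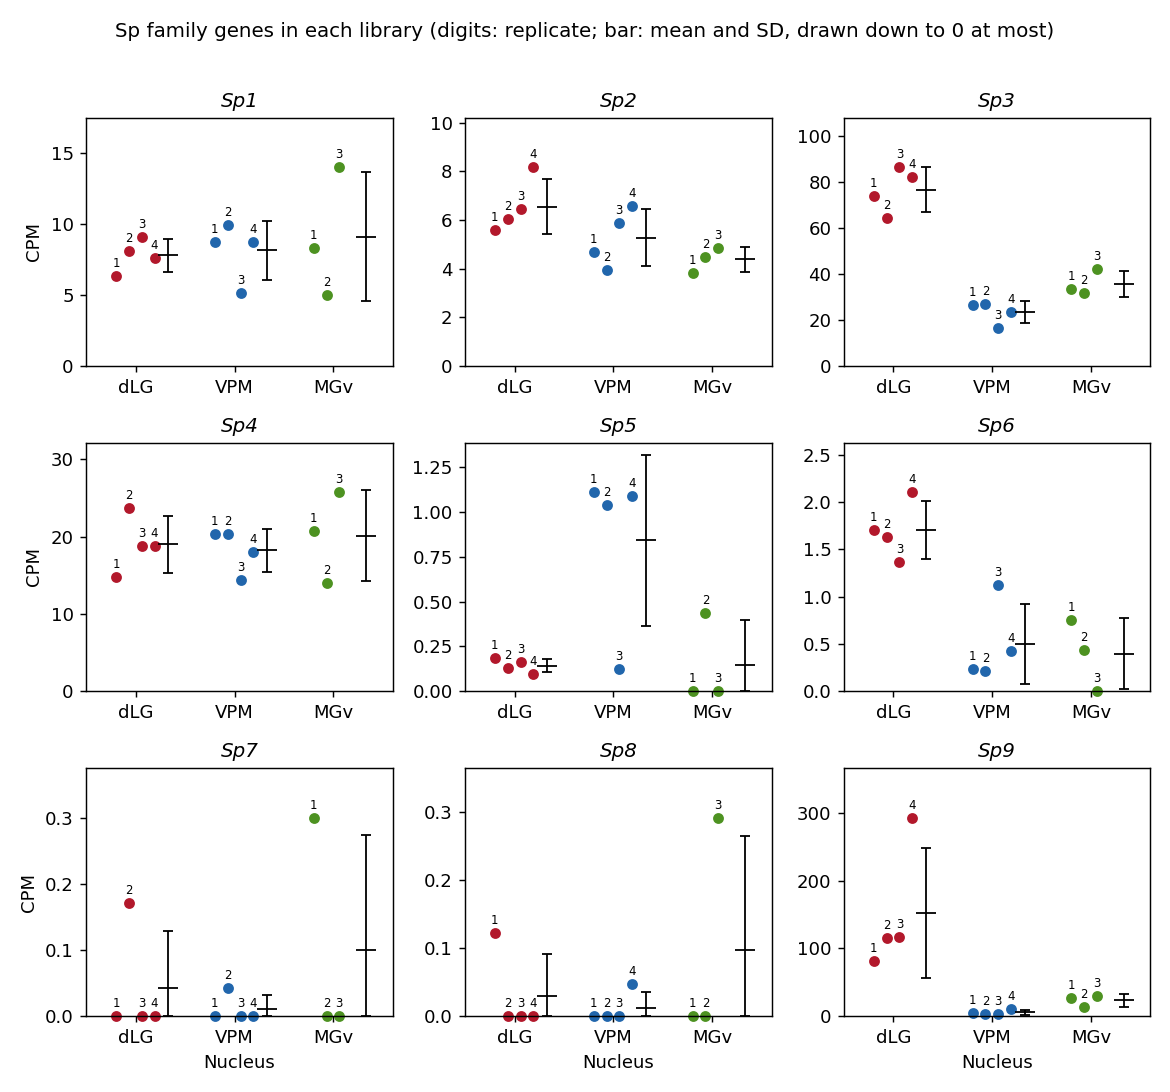
CPM of each Sp family gene (vertical axis, from 0, with its own scale in each panel) in the libraries of dLG, VPM and MGv (horizontal axis). Points are libraries labelled by replicate, and the bars beside them give mean and SD. Sp9 and Sp3 separate the nuclei, with Sp9 at 81.9 to 293 CPM in dLG and at most 30.3 CPM elsewhere, and Sp7 and Sp8 lie at or near 0.

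Sp3, a broadly expressed factor known to activate or repress depending on its isoform, was higher in dLG than in both other nuclei and lower in VPM than in MGv. It had 73.9, 64.6, 86.5 and 82.1 CPM in dLG. It had 26.7, 27.0, 16.7 and 23.4 CPM in VPM, and 33.4, 31.6 and 42.1 CPM in MGv. No libraries of different nuclei overlapped, as was the case for 14.6% of all genes when dLG was set against VPM, 23.8% for dLG against MGv and 25.1% for VPM against MGv. The order of the nuclei was that of Sp9. The mean of dLG was 76.8 ± 9.64 CPM (SD, n = 4), that of VPM 23.5 ± 4.75 CPM (n = 4) and that of MGv 35.7 ± 5.62 CPM (n = 3).

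By edgeR's quasi-likelihood test, with Benjamini-Hochberg adjustment over all genes tested and a threshold of 0.1, Sp3 passed in all 3 comparisons. Its log2 fold change was 1.71 ± 0.17 (SE) for dLG against VPM, with an adjusted p of 3.85e-05. It was 1.11 ± 0.19 for dLG against MGv, with an adjusted p of 0.00149, and −0.60 ± 0.18 for VPM against MGv, with an adjusted p of 0.0459. Both differences with dLG passed under each of the 19 alternative fits and with each library left out. The smaller difference between VPM and MGv was called in 17 of these fits. It was not called without MGv replicate 3, the highest of its nucleus, where the log2 fold change was −0.46 with an adjusted p of 0.201. Nor was it called with the replicate number added to the model, at −0.61 with an adjusted p that rounds to 0.1. Sp3 shares 2.21% of its exon bases with the antisense gene Sp3os, and the strand setting of the counting was not stated. Sp3os was highest within each nucleus in the library low in Hspa8, at 35.9 CPM in dLG, 49.0 CPM in VPM and 25.9 CPM in MGv, whereas Sp3 was lowest in its nucleus in the first 2 of these.

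Of the 6 members tested other than Sp9, Sp3 was the 1 that passed in each comparison. The background was 10.7% of all genes called for dLG against VPM (4.97% higher and 5.74% lower in dLG), 16.1% for dLG against MGv (8.61% and 7.49%) and 19.0% for VPM against MGv (10.4% higher and 8.56% lower in VPM), so that 1 of 6 was close to the background in each. Sp5 and Sp6 passed the count filter only through VPM and dLG, the nuclei in which they were highest, so their fits are given as a description and are not counted as support. Without them Sp3 was the 1 called among Sp1 to Sp4. Of the 14525 genes that no single nucleus brought past the filter, 10.6%, 16.2% and 19.1% were called. So few members do not allow a reading of this share. Sp3 was called higher in dLG than in both other nuclei, as were 2.04% of all genes. Every dLG library lay above every other library for Sp3, a pattern seen in 3.01% of genes. Sp9 had this pattern too, as did Sp6, which dLG alone brought past the filter. Both patterns have the direction for which Sp9 was chosen, so these shares are given as a description and carry no support.

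**Figure D2:**
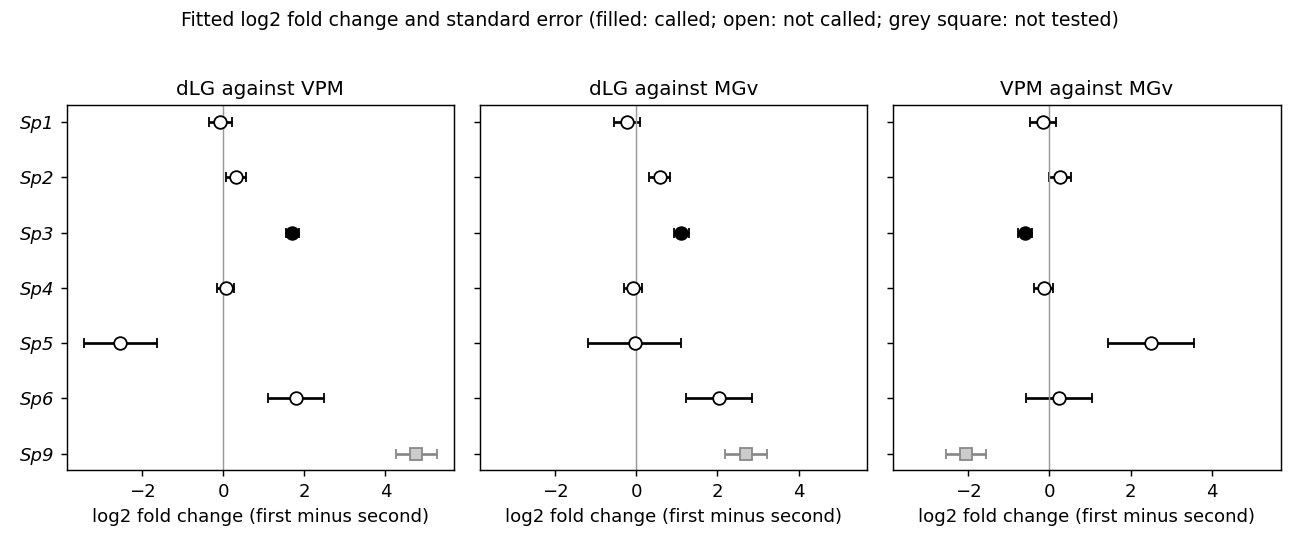
Fitted log2 fold change with its SE (horizontal axis) of the 7 members past the count filter (vertical axis) in the 3 comparisons of nuclei. Filled points passed the test, open points did not, and Sp9, the grey square, was not tested. Sp3 lies at 1.71, 1.11 and −0.60, Sp1 and Sp4 lie near 0 in every comparison, and Sp5 and Sp6, which passed the count filter through a single nucleus, have wide errors.

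Sp1, the founding member and a general activator of housekeeping promoters, had 6.33, 8.08, 9.10 and 7.64 CPM in dLG. It had 8.76, 9.95, 5.15 and 8.75 CPM in VPM, and 8.34, 5.0 and 14.0 CPM in MGv. The nuclei overlapped, MGv spanning the ranges of the other nuclei. The log2 fold changes were −0.07 ± 0.29, −0.22 ± 0.32 and −0.15 ± 0.32 (SE) for dLG minus VPM, for dLG minus MGv and for VPM minus MGv, with adjusted p-values by edgeR's quasi-likelihood test of 0.935, 0.737 and 0.799.

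Sp4, a member enriched in neurons and close in sequence to Sp1 and Sp3, had 14.7, 23.7, 18.8 and 18.8 CPM in dLG. It had 20.3, 20.3, 14.4 and 18.0 CPM in VPM, and 20.7, 14.0 and 25.7 CPM in MGv. The libraries of all nuclei overlapped. Its log2 fold changes were 0.06 ± 0.21, −0.08 ± 0.23 and −0.14 ± 0.23 in the same order, with adjusted p-values by edgeR's quasi-likelihood test of 0.924, 0.881 and 0.740.

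Sp2, a widely expressed member that is recruited to CCAAT boxes with the factor NF-Y, had 5.60, 6.02, 6.43 and 8.16 CPM in dLG. It had 4.68, 3.94, 5.89 and 6.56 CPM in VPM, and 3.83, 4.48 and 4.86 CPM in MGv. The dLG libraries lay above those of MGv without overlap, as did 23.8% of all genes in either direction, and overlapped those of VPM. The log2 fold change of 0.58 ± 0.26 for dLG against MGv did not pass, with an adjusted p of 0.196 by edgeR's quasi-likelihood test, and neither did 0.32 ± 0.24 for dLG against VPM (adjusted p of 0.520) or 0.26 ± 0.26 for VPM against MGv (adjusted p of 0.569).

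Sp6, which is known from the development of teeth, skin and limbs, had few counts, 135 in all of dLG, 37 in VPM and 15 in MGv. The dLG libraries had 1.70, 1.63, 1.36 and 2.10 CPM. The VPM libraries had 0.232, 0.216, 1.12 and 0.428 CPM, and the MGv libraries had 0.751, 0.439 and 0.0 CPM. The 4 dLG libraries, through which Sp6 passed the count filter, lay above the others, whereas VPM and MGv overlapped, and the library low in Hspa8 was the highest in each of these nuclei. The log2 fold change was 1.79 ± 0.69 for dLG against VPM and 2.03 ± 0.81 for dLG against MGv, which did not pass edgeR's quasi-likelihood test (adjusted p of 0.151 and 0.132). Without the 3 libraries low in Hspa8 they were 2.54 and 2.88, with adjusted p-values of 0.0513 and 0.0717, and without VPM replicate 3 alone 2.52 and 2.03, with 0.0418 and 0.0769. Without MGv replicate 3 the first stood at 1.79 with 0.0703. Of the 19 alternative fits, 7 called the first and 6 the second, which carries no support for a gene that dLG alone brought past the filter. Of the exon bases of Sp6, 86.67% overlap Gm11532 on the other strand, which had at most 0.239 CPM in any library, and with the strand setting not stated the reads of these genes cannot be told apart.

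Sp5, a target and modulator of Wnt signalling, was also close to the floor. It had 3, 3, 3 and 2 counts in the dLG libraries. It had 24, 24, 2 and 23 counts in VPM, and 0, 5 and 0 counts in MGv. In VPM, replicates 1, 2 and 4 had 1.11, 1.04 and 1.09 CPM, above all other libraries, and replicate 3, at 0.124 CPM, lay within the range of dLG. The log2 fold change was −2.53 ± 0.89 for dLG against VPM and 2.50 ± 1.06 for VPM against MGv, and neither passed edgeR's quasi-likelihood test (adjusted p of 0.111 and 0.141). Sp5 passed the count filter only through these 3 VPM libraries, so that these values describe them and support no difference. Without the 3 libraries low in Hspa8 the first was −2.84 with an adjusted p of 0.0527, and without VPM replicate 3 alone the values were −2.88 and 2.84, with 0.0415 and 0.0664. Without MGv replicate 2 or MGv replicate 3 the first stood at −2.55, with 0.0727 and 0.0985, and without MGv replicate 2, which leaves MGv with 0 counts, the second passed with 0.0307. The 2 nuclei with low counts, dLG and MGv, had 0.143 and 0.146 CPM on average. VPM replicate 3 also had the lowest level of its nucleus for Sp1, Sp3 and Sp4.

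Sp7 (osterix), needed for the formation of bone, had 9 counts in all 11 libraries together, and Sp8 had 6. Each was at 0 in 8 of the 11 libraries. No library exceeded 0.301 CPM for Sp7 or 0.292 CPM for Sp8, which is close to the level that 3 counts give in these libraries, and over all libraries 3 counts correspond to 0.0153 CPM. A difference between the nuclei was not detectable at this depth for either gene. In dLG, Sp9 thus had 1345 to 6140 counts per library where Sp8 had 0 to 2.

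Compared per length, as CPM per kb of merged exons, Sp9 was the most abundant member in dLG and Sp3 in VPM and MGv. In dLG the level of Sp9 was 30.1 ± 18.9 CPM per kb and that of Sp3 15.6 ± 1.95 CPM per kb (SD, n = 4). Sp4 followed at 3.29 ± 0.634 CPM per kb, Sp2 at 1.92 ± 0.329 and Sp1 at 0.942 ± 0.139. In dLG replicate 1 the levels of Sp9 and Sp3, at 16.2 and 15 CPM per kb, were close to each other, and in the other dLG libraries Sp9 lay above Sp3. In VPM the order was Sp3 at 4.75 ± 0.964 CPM per kb, Sp4 at 3.16 ± 0.480, Sp2 at 1.54 ± 0.346, Sp9 at 1.11 ± 0.753 and Sp1 at 0.987 ± 0.252 (SD, n = 4). There the ranges of Sp3 and Sp4 touched, although Sp3 lay above Sp4 within each VPM library, and Sp2, Sp9 and Sp1 did not differ beyond their spread. In MGv, Sp3 was at 7.23 ± 1.14 CPM per kb, Sp9 at 4.64 ± 1.82, Sp4 at 3.49 ± 1.02, Sp2 at 1.29 ± 0.152 and Sp1 at 1.10 ± 0.550 (SD, n = 3), with overlap of Sp9 with Sp4 and of Sp2 with Sp1. Within each MGv library Sp9 lay above Sp4, most narrowly in replicate 2 (2.58 against 2.42 CPM per kb). Sp5, Sp6, Sp7 and Sp8 were at or below 0.443 CPM per kb on average in every nucleus. For Sp6 the length includes the 86.67% of exon bases shared with Gm11532. Whether reads there were counted is not known, so the level of Sp6 per kb could be too low and its rank is uncertain. Among the genes tested, the level of Sp9 per kb stood at percentile 88.4 in dLG, 31.8 in VPM and 58.6 in MGv, and that of Sp4 between 50.7 and 53.3 in all nuclei.

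Summed over the family, the level was 52.4 ± 20.2 CPM per kb in dLG, 12.1 ± 1.91 in VPM and 18.0 ± 4.27 in MGv (SD). Sp9 made up 54.2% ± 11.7 of this sum in dLG, from 44.2% to 70.9% between libraries. Its share was 8.95% ± 5.03 in VPM and 25.1% ± 5.53 in MGv, below every dLG library. Sp3 took 32.1% ± 8.97 in dLG, 39.2% ± 4.45 in VPM and 40.9% ± 5.24 in MGv, so that its share was not higher in dLG although its level was. Without Sp9 the sum was 22.2 ± 2.04 CPM per kb in dLG, 11.0 ± 1.61 in VPM and 13.3 ± 2.59 in MGv, and the lowest dLG library, at 20.5 CPM per kb, still lay above the highest of the others, at 16.2. This difference lay mainly in Sp3, at 15.6, 4.75 and 7.23 CPM per kb in the same order. Sp4 had 3.29, 3.16 and 3.49 CPM per kb, Sp2 1.92, 1.54 and 1.29, and Sp1 0.942, 0.987 and 1.10.

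**Figure D3:**
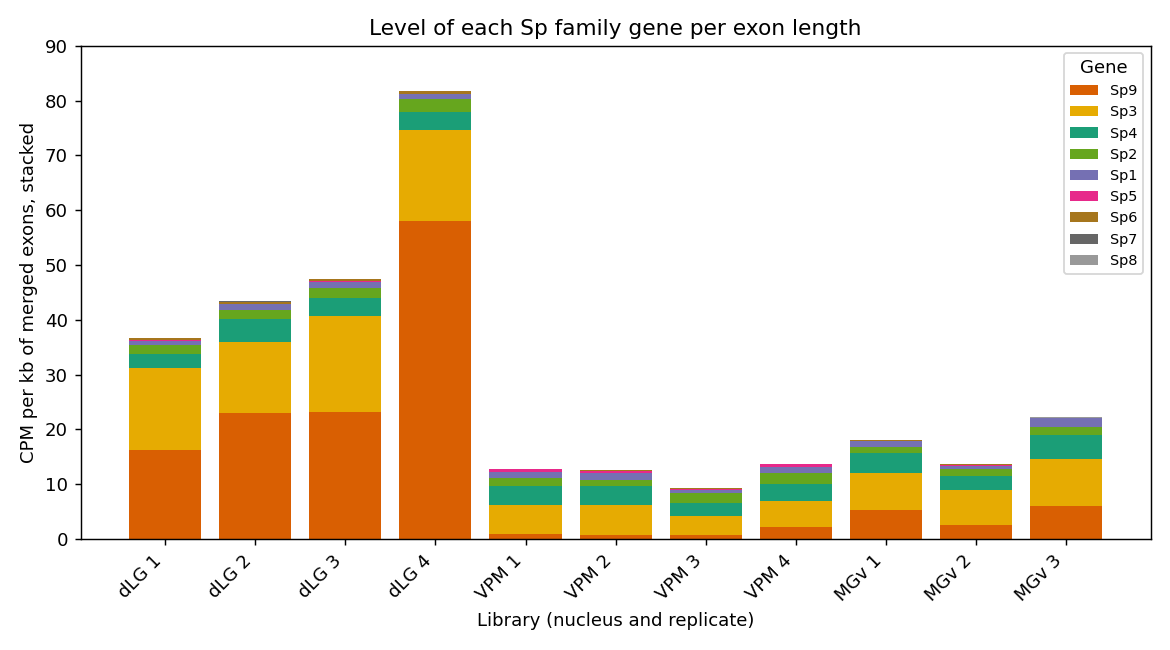
Stacked level of the 9 Sp family genes in CPM per kb of merged exons (vertical axis, from 0) in each of the 11 libraries (horizontal axis, nucleus and replicate). The stacks reach 36.7 to 81.9 in dLG, 9.34 to 13.7 in VPM and 13.6 to 22.2 in MGv, and Sp9 and Sp3 together form most of each dLG stack.

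Genes around Sp9 were examined because Sp3 lies in the same region. Within 1 Mb of Sp9 there were 42 annotated genes, of which 16 passed the count filter, Sp3 among them. Cdca7, a nuclear protein gene 785.0 kb from Sp9, had 71.4, 48.2, 58.0 and 83.2 CPM in dLG. It had 0.606 to 1.92 CPM in the VPM libraries and 3.08 to 5.15 CPM in those of MGv. The nuclei did not overlap and stood in the same order as for Sp9. Its log2 fold change was 5.87 ± 0.32 for dLG against VPM and 3.98 ± 0.33 for dLG against MGv, with adjusted p-values of 1.91e-07 and 6.13e-06 by edgeR's quasi-likelihood test.

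Ola1, an ATPase gene 53.0 kb from Sp9, was also higher in dLG, with log2 fold changes of 0.66 ± 0.12 and 0.56 ± 0.13 against VPM and MGv (adjusted p of 0.00403 and 0.0131 by edgeR's quasi-likelihood test). Sp3, Cdca7 and Ola1 were the 3 of the 16 genes that were higher in dLG than in both nuclei, and Cir1 and Chn1 were the 2 that were lower in both, where 2.04% and 2.18% of all genes were. Sp3 was the reason for examining this region, so the count of 3 is not independent of it. Cir1, which encodes a corepressor of Notch signalling and overlaps 5.35% of the exon bases of Sp9 from the other strand, averaged 7.01 ± 0.687 CPM for the dLG libraries (SD, n = 4), 10.9 ± 0.500 CPM for VPM (n = 4) and 14.6 ± 1.05 CPM for MGv (n = 3). Its direction was thus opposite to that of Sp9, with log2 fold changes of −0.63 ± 0.17 and −1.05 ± 0.18 against VPM and MGv (adjusted p of 0.0324 and 0.00136). Chn1, a gene for a GTPase-activating protein of axon guidance, had log2 fold changes of −0.88 ± 0.15 and −0.55 ± 0.16 (adjusted p of 0.00240 and 0.0392), the second of which was −0.36 and not called (0.216) without MGv replicate 3.

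The gene 6430710C18Rik and Chrna1 passed the count filter only through dLG. Over the other 14 genes, 4 were called higher and 2 lower in dLG than in VPM, where 4.99% and 5.65% of the 14525 genes that no single nucleus brought past the filter were. Against MGv the counts were 6 and 2, beside 8.55% and 7.64%. Sp3, for which the region was examined, is among the genes called higher in both comparisons. These counts and the medians of the 14 genes are thus not independent of it. Map3k20 passed against VPM, at 1.69 ± 0.38, and did not pass against MGv. Scrn3 and Wipf1 passed against MGv, at 1.46 ± 0.50 and 3.31 ± 0.84, and not against VPM. Scrn3 was called in 13 of the 19 alternative fits, and without dLG replicate 2, low in Hspa8, it stood at 0.82 with an adjusted p of 0.218. D230022J07Rik had 0 counts in all MGv libraries and 0.258 to 2.0 CPM in those of dLG. Its dLG mean of 1.23 CPM was 14.2-fold the floor of 3 counts taken over MGv, the shallowest nucleus. The median log2 fold change of the 14 genes was 0.46 for dLG against VPM and 0.35 for dLG against MGv, beside 0.00 and 0.01 over the 14525 genes. The most abundant of them, Atp5g3, a subunit of mitochondrial ATP synthase, had log2 fold changes of −0.25 ± 0.21 and 0.12 ± 0.23 and did not pass. Sp3os, whose exons overlap those of Sp3, did not pass in any comparison, with 0.01 ± 0.41 for dLG against VPM.

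**Figure D4:**
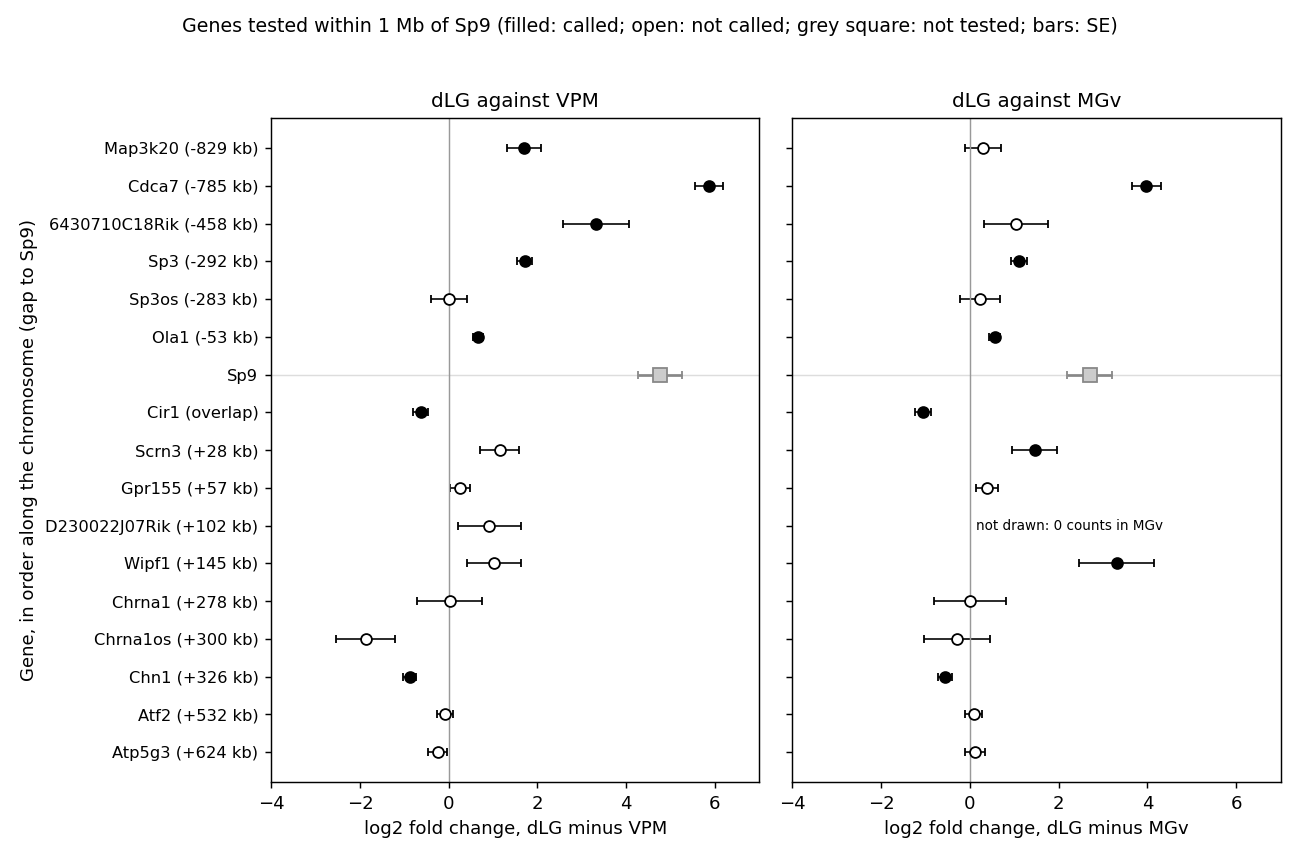
Fitted log2 fold change with its SE (horizontal axis) of the 16 genes tested within 1 Mb of Sp9, listed in chromosomal order with the gap to Sp9 in kb (vertical axis), for dLG against VPM and dLG against MGv. Filled points passed the test, open points did not, and Sp9, the grey square, was not tested. Cdca7, Sp3 and Ola1 lie to the right in both panels, and Cir1 and Chn1 to the left.

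The pattern of Sp9 over the libraries was compared with that of 11039 tested genes whose mean reached 5 CPM in some nucleus, by Pearson's r of log2 CPM over the 11 libraries. These correlations share the same libraries and the same differences between nuclei, and are given as a description. The 8 genes most like Sp9 were Ccdc88c (r = 0.963), Ptprt (0.960), Tenm2 (0.952), Rprml (0.952), Kcnab3 (0.947), Sox2 (0.946), Zc3h12c (0.945) and Cadm1 (0.945). They include genes for synaptic and adhesion proteins, Tenm2, Cadm1 and the receptor phosphatase Ptprt, and the transcription factor Sox2. Cdca7 ranked 10 with r = 0.940 and Sp3 ranked 13 with r = 0.932. The other members were far down the order, with r = 0.594 for Sp2, 0.185 for Sp4 and 0.084 for Sp1, and Sp5 and Sp6 were below the level required.

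Among the 8 genes, the difference between dLG and VPM was largest for Rprml, whose mean was 24.4 CPM in dLG, 0.621 CPM in VPM and 4.02 CPM in MGv. Cadm1, a cell adhesion gene, was far more abundant, at 1346 CPM in dLG, 280 CPM in VPM and 770 CPM in MGv, and Tenm2 had 556, 165 and 289 CPM. Sox2 had 158, 73.6 and 87.2 CPM. The 4 genes most opposite to Sp9 were Cend1 (r = −0.984), Tpd52 (−0.973), 2900011O08Rik (−0.973) and Mep1a (−0.959), of which Cend1, which promotes exit of neuronal precursors from the cell cycle, had 172 CPM in dLG, 269 CPM in VPM and 211 CPM in MGv. Of the 8 genes, 3 were among the 8 by Spearman's rho and 2 without the libraries low in Hspa8, so that the membership near the top depended on these choices.

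**Figure D5:**
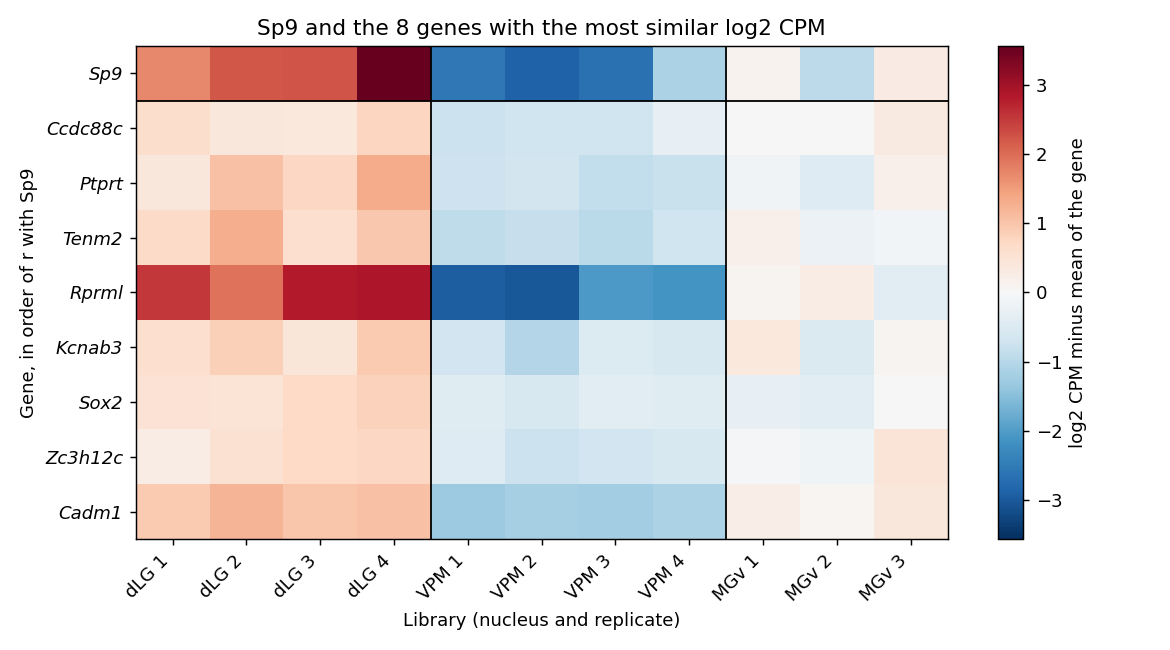
Log2 CPM of Sp9 and the 8 genes with the highest Pearson's r with it (vertical axis, in order of r), minus the mean of the gene, as colour in each of the 11 libraries (horizontal axis). Red marks levels above and blue levels below the mean of the gene. All 9 genes are above their mean in every dLG library and below it in every VPM library, and Sp9 and Rprml have the widest range.

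Krüppel-like factors (Klf), the sister family that shares the zinc fingers and binds related GC-rich elements, were expressed in these neurons, and 15 of the 17 genes were tested. By edgeR's quasi-likelihood test 2 passed for dLG against VPM, 2 for dLG against MGv and 3 for VPM against MGv, where 10.7%, 16.1% and 19.0% of all genes did. Their median log2 fold changes were 0.09, −0.01 and −0.08, beside 0.00, 0.02 and 0.02 over all genes. Klf12, a repressor, resembled Sp3 in order, averaging 43.8 ± 6.74 CPM for dLG (SD, n = 4), 15.3 ± 4.21 CPM for VPM (n = 4) and 32.0 ± 3.88 CPM for MGv (n = 3). Its log2 fold change of 1.52 ± 0.21 for dLG against VPM passed (adjusted p of 4.08e-04 by edgeR's quasi-likelihood test) and that of 0.45 ± 0.22 against MGv did not (adjusted p of 0.230).

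Klf9, a thyroid hormone-responsive factor of maturing neurons, was highest in VPM, at 4.69 ± 0.735 CPM against 1.73 ± 0.427 CPM in MGv, and Klf5 was lower in VPM than in MGv, with a log2 fold change of −1.32 ± 0.27. Both passed edgeR's quasi-likelihood test, with adjusted p-values of 0.0265 and 0.00533. Klf6, the most abundant of the family at 573 CPM over all libraries, was lower in dLG than in MGv (−0.51 ± 0.17, adjusted p of 0.0665 by edgeR's quasi-likelihood test), a call made in 14 of the 19 alternative fits and lost without dLG replicate 3 or 4 or MGv replicate 1 or 3 (adjusted p of 0.125 to 0.283). Klf7, known from axon growth and named here after its values were seen, was higher in dLG than in VPM (0.39 ± 0.13, adjusted p of 0.0966) and MGv (0.51 ± 0.14, adjusted p of 0.0314). The first was called in 6 of the 19 alternative fits and in 1 of the 11 with a library left out, with adjusted p-values up to 0.294, and the second was lost without MGv replicate 1 (0.123).

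All 15 genes of a list of cofactors and modifying enzymes of Sp proteins were tested, and 1, 0 and 1 of them passed in the 3 comparisons, where 10.7%, 16.1% and 19.0% of all genes did. Hdac2, a histone deacetylase that Sp1 and Sp3 recruit and the most abundant of the list, was lower in dLG than in VPM (−0.65 ± 0.20, adjusted p of 0.0624 by edgeR's quasi-likelihood test), and the acetyltransferase gene Ep300 was lower in VPM than in MGv (−0.89 ± 0.27, adjusted p of 0.0449). The first call was lost without dLG replicate 1, 2 or 3 or VPM replicate 1, 2 or 4 (adjusted p of 0.104 to 0.175), and the second without VPM replicate 1 or MGv replicate 2 or 3 (0.106 to 0.194). For dLG against MGv 0 genes of the list passed edgeR's quasi-likelihood test, 0 had an unadjusted p under 0.05, as 24.1% of all genes did, and 0 were called by DESeq2 or voom. Median log2 fold changes were 0.13, −0.04 and −0.13 in the order used above.

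Of 12 genes tied to Sp8 and Sp9 in forebrain GABAergic neurons, 6 were tested, and 2, 1 and 1 of them passed in the 3 comparisons, beside the 10.7%, 16.1% and 19.0% of all genes. Prokr2, a prokineticin receptor gene that these factors are known to control in olfactory interneurons, averaged 97.6 ± 8.95 CPM for dLG (SD, n = 4), 57.7 ± 11.9 CPM for VPM (n = 4) and 40.3 ± 5.04 CPM for MGv (n = 3). Its level in dLG exceeded that of VPM (0.76 ± 0.16, adjusted p of 0.00854 by edgeR's quasi-likelihood test) and of MGv (1.27 ± 0.17, adjusted p of 2.89e-04), and VPM exceeded MGv (0.52 ± 0.17, adjusted p of 0.0637), an order other than that of Sp9. The last of these calls was lost without VPM replicate 2 or 4 or MGv replicate 2 or 3 (adjusted p of 0.110 to 0.217). Penk, a neuropeptide gene of striatal neurons, was lower in dLG than in VPM (−1.94 ± 0.62, adjusted p of 0.0795), with means of 1.98 and 7.73 CPM. Its VPM libraries had 2.97, 2.94, 21.0 and 4.04 CPM, and without replicate 3, low in Hspa8, the VPM mean was 3.32 CPM and the log2 fold change −0.73, which did not pass (adjusted p of 0.313). The call was also lost without dLG replicate 1, 3 or 4 (0.137 to 0.197). The remaining tested genes, Zeb2, Ackr3, Drd2 and Gpr6, did not pass in any comparison. Zeb2 and Drd2 passed the count filter only through MGv, and the median log2 fold changes of the other 4 tested genes were 0.66, −0.30 and −0.28. Among those not tested, the transcription factor genes Six3, Lhx6 and Lhx8 had at most 0.486 CPM, and Cxcr4 and Adora2a at most 0.389 CPM. The GABA-synthesizing enzymes Gad1 and Gad2 had at most 2.72 and 1.43 CPM.

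Among 9 targets of Wnt signalling listed beside Sp5, 6 were tested, and 2, 3 and 4 of them passed in the 3 comparisons, beside the 10.7%, 16.1% and 19.0% of all genes. Nkd1, an inhibitor of the pathway, had 39.0 ± 7.91 CPM in dLG, 19.1 ± 1.06 CPM in VPM and 59.4 ± 7.99 CPM in MGv (SD), and each pair of nuclei differed, with log2 fold changes of 1.03 ± 0.16, −0.61 ± 0.17 and −1.63 ± 0.17 (adjusted p of 0.00120, 0.0312 and 3.33e-05 by edgeR's quasi-likelihood test). The second was lost without dLG replicate 1 or MGv replicate 1 or 2 (−0.55 to −0.50, adjusted p up to 0.112). Axin2 was likewise lowest in VPM, with 0.791 ± 0.238 CPM against 1.93 ± 0.667 CPM in dLG and 3.87 ± 0.813 CPM in MGv. Its call for dLG against VPM (1.29 ± 0.39, adjusted p of 0.0614 by edgeR's quasi-likelihood test) held in 11 of the 19 alternative fits, with adjusted p-values up to 0.343. The call for VPM against MGv (−2.29 ± 0.41) held in all 19. Lef1, a nuclear effector of the pathway and the most abundant of the list, and the receptor gene Lgr5 were lower in MGv than in dLG, by log2 fold changes of 0.91 and 1.16, and than in VPM, by 0.72 and 1.03. Median log2 fold changes of the 6 were 0.16, −0.04 and 0.09.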

How the data were processed

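RNA-seq counts of 11 libraries of sorted neurons (dLG 4, VPM 4, MGv 3) were analysed, each a table of raw counts per gene deposited by the authors. According to the labels and methods, cDNA came from a SMARTer Ultra Low kit, and single reads of 50 bases were trimmed (Trim Galore 0.6.1, cutadapt 2.3), aligned to mm10 with STAR 2.7.0d and counted in Ensembl genes with featureCounts (Subread 1.6.4). Strand setting and treatment of reads with several alignments were not given in the sources used here. The counts were not normalized and replicates were not pooled. Groups came from the sample titles. Nothing said that replicates came from separate litters, so p-values measure the spread between these libraries. No 2 libraries of a nucleus agreed within sampling noise (chi-square per degree of freedom from 12.8 to 115 over 15 pairs).

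Of 33170 genes with at least 1 count, 15907 passed filterByExpr (0.529 CPM, or 10 counts at the median total, in at least 3 libraries). Nuclei were compared by edgeR's quasi-likelihood test in R 4.3.3 with edgeR 4.0.16, two-sided, with TMM scaling, all 11 libraries in a single model with a mean per nucleus, Benjamini-Hochberg adjustment over these genes and a threshold of 0.1, the threshold of the study, which used DESeq2. The common biological coefficient of variation was 28.2%. Standard errors are the size of the log2 fold change over the root of its F statistic, and log2 CPM used a prior count of 2. On simulated counts of 15907 genes with known changes, this test recovered 60%, 46.4% and 48.5% of genes changed 2-fold and 90.1%, 82.8% and 80% of those changed 4-fold for dLG minus VPM, for dLG minus MGv and for VPM minus MGv. Of the genes it called there, 8.85%, 11.5% and 11.6% had not been changed, and it called 0 genes where none was changed. The simulated spread followed abundance only, without the pattern of the 3 libraries low in Hspa8. Far fewer genes were changed there, each in a single nucleus, than were called in the data, and the shares depend on that number. Positions and exon lengths came from GENCODE M21 on GRCm38, in which 54723 of 54752 identifiers were found, and promoter sequences from RefSeq. Reads amplified without molecular identifiers are not independent molecules, so floors cover counting error only.

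The members and the gene lists were chosen with earlier results of these data known. Named genes were the 9 members, from each list up to 4 called genes with the largest log2 fold change and the most abundant gene, the 8 genes most like Sp9 and the 4 most opposite to it, and the genes within 1 Mb of Sp9 called in a comparison with dLG. The values of 1 listed gene are not reported here. Each call was recomputed with DESeq2 1.42.0, with quality-weighted voom in limma 3.58.1, with size factors of DESeq2, with no count filter, a replicate block, a covariate for or the removal of the 3 libraries low in Hspa8, counts thinned to the smallest total, an adjusted p under 0.05 and each library left out.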

Additional observations from a re-analysis of the deposited data

Results flagged for a closer look

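Of 18 sets of 4 libraries (9 genes in dLG and VPM), 7 had a library far from the others by Dixon's criterion, the gap to the nearest library as a share of the range. Chance gives this in about 1 in 20 sets, and sets of counts near 0 are not like those the criterion assumes. Sp9 met it in both nuclei, through replicate 4 each time, with a share of 0.834 in dLG (293 CPM against at most 117) and of 0.896 in VPM (11.3 CPM against at most 4.08). The deviations of these libraries from the means of their nuclei, over all genes, had a correlation of 0.483, the highest of the 10 pairs of libraries with the same number. Whether a shared origin bears on Sp9 was not tested, and the labels do not say that numbers mark shared animals. Sp5 met it in VPM with 0.925, through replicate 3 (2 counts against 23 to 24), a library low in Hspa8. Sp7 and Sp8 met it in dLG and VPM with 1.0 in each of these 4 sets, in which 1 library had 1 to 4 counts and the others 0.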

How the results depend on the processing

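Sp3 kept its direction in every comparison under the 19 alternatives, with log2 fold changes of 1.58 to 1.78 for dLG against VPM and 1.02 to 1.24 for dLG against MGv, called in 19 of 19 each (adjusted p up to 7.92e-04 and 0.0123), and −0.71 to −0.41 for VPM against MGv, called in 17. The number of members called other than Sp9 was 1 in each comparison. For dLG against VPM it was 3 with DESeq2, with voom, without the count filter and without the 3 libraries low in Hspa8, 2 with a covariate for these libraries, and 1 to 3 with a library left out. For dLG against MGv it was 2 with the same 5 alternatives and 1 to 2 with a library left out. For VPM against MGv it was 2 with voom, 0 with the replicate block and 0 to 2 with a library left out. The added calls were of Sp5 and Sp6, which passed the count filter through a single nucleus, and carry no support. Calls of listed genes and neighbours of Sp9 numbered 13, 13 and 14 in the 3 comparisons and 9 to 18, 9 to 16 and 11 to 19 under the alternatives. Genes called for dLG against VPM numbered 1704, 4414 with voom, 2618 without the 3 libraries low in Hspa8 and 1093 to 2223 with a library left out. Uncalled log2 fold changes that turned were those of Sp4 for dLG against VPM (−0.16 with voom and −0.16 without the libraries low in Hspa8), of Sp1 for dLG against MGv (0.01 with voom), of Sp5 for dLG against MGv (0.46 with voom, 0.31 with the replicate block, 0.08 with the covariate), and of Sp1 (0.29), Sp4 (0.11) and Sp6 (−0.38) for VPM against MGv with voom. With a library left out, ranges that crossed 0 were −0.23 to 0.04 for Sp1 and −0.08 to 0.15 for Sp4 in dLG against VPM, −0.52 to 0.22 for Sp1, −0.29 to 0.13 for Sp4 and −0.65 to 4.44 for Sp5 in dLG against MGv, and −0.44 to 0.30 for Sp1, −0.34 to 0.08 for Sp4 and −0.49 to 1.09 for Sp6 in VPM against MGv. The value of 4.44 arose without MGv replicate 2, when MGv held 0 counts of Sp5, and depends on the prior count. Sp5 could not be tested without VPM replicate 1, 2 or 4, where it failed the count filter. The nuclei share replicate numbers. Deviations of 10 pairs with the same number had a mean correlation of 0.015 (−0.203 to 0.483), 30 other pairs −0.005 (−0.311 to 0.268), and not every library correlated best with its own number. Same-number pairs of dLG and VPM had 0.185, 0.025, −0.008 and 0.483, and those with MGv −0.203 to 0.067. So few pairs cannot settle whether the numbers pair the libraries. With the replicate block 1464, 2169 and 2695 genes were called in the 3 comparisons, against 1704, 2562 and 3016, and Sp3 for VPM against MGv stood at −0.61 with an adjusted p that rounds to 0.1. Standard errors were 0.21 to 0.32 for Sp1, Sp2 and Sp4 and 0.69 to 1.15 for Sp5 and Sp6, whose biological coefficients of variation were 66.6% and 55.1%, and Sp7 and Sp8 were at or near the floor.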
